A study of Homo sapiens with 4 samples.

Results

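Heat shock proteins and their DNAJ co-chaperones were followed in THP1 cells, a human monoblastic AML cell line that carries the MLL-AF9 fusion gene. The cells received 30 nM of a miRNA mimic, either miR-511-5p mimic or negative control #1 mimic, and RNA was taken on day 2. Each treatment was measured on 2 arrays, 1 from each of 2 independent experiments, with a single dye on the Agilent Human Whole Genome Microarray. All 4 arrays thus share the cell line, the low-serum culture after transfection and the transfection itself, and no group was heated. The naming rule for members used no measured value, but it was set with earlier results of these data known. It took every non-control probe named as an HSPA, HSPB, HSPD, HSPE, HSPH or HSP90 gene. Probes named as a DNAJA, DNAJB or DNAJC gene, or as HSF1 or HSF2, were also taken. This gave 107 probes with 81 gene names out of 34127 probes with 27193 gene names. Of the 81 genes, 59 had 1 probe and 22 had several.

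The names bring in some genes that are no chaperones. HSPBP1 and HSPBAP1 code for proteins that bind heat shock proteins, and HSPB11 is called IFT25 in RefSeq, a protein of intraflagellar transport. HSP90AA5P, HSP90AB2P, HSP90AB4P, HSP90AB6P and HSP90B3P are pseudogenes of HSP90 genes, and HSP90AA2 is likewise a close copy of HSP90AA1. Probe sequences were not analysed here, so whether the probes of such copies, or those of the near-identical pair HSPA1A and HSPA1B, also bind each other's transcripts was not tested, and their values are uncertain in this respect.

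Chaperones keep other proteins from aggregating and help them fold. HSP70 proteins (HSPA) bind unfolded stretches in a cycle driven by ATP, DNAJ proteins start that cycle by bringing clients and stimulating ATP hydrolysis, and HSP110 proteins (HSPH1, HSPA4, HSPA4L) end it by exchanging the nucleotide. HSP90 proteins act later, on nearly folded clients such as kinases and steroid receptors, small HSPs (HSPB) hold aggregating proteins without ATP, and HSPD1 with HSPE1 forms the folding chamber of mitochondria. HSF1 is the transcription factor that raises the inducible members after heat or proteotoxic stress, through heat shock elements in their promoters, whereas the chaperones of the endoplasmic reticulum (ER) answer to a separate unfolded protein response. Leukemic cells commonly hold high levels of several of these chaperones. A miRNA, in turn, lowers transcripts that pair with its seed, bases 2 to 8. The mature miR-511-5p, as RefSeq gives it, is shown with that seed in capitals, since the mimic supplies it to the cells. It lies at chr10:17845122-17845142 on the plus strand of GRCh38.p14.

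hsa-miR-511-5p: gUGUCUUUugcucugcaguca

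Values are log2 intensities after quantile normalization, and they compare arrays for 1 probe, not one probe with another. A probe was tested when its signal was well above background, as the scanner software marks it, on both arrays of at least 1 treatment, which held for 95 member probes of 70 genes out of 22638 probes of 18001 genes. Differences are given as log2FC for miR-511 mimic minus control mimic, and as the log2 difference for experiment 2 minus experiment 1. Both come from limma fitted over all tested probes, each with its standard error (SE), and the threshold was an unadjusted p below 0.05 with Benjamini-Hochberg adjusted values beside it. For a single probe, permuting the 4 arrays (exact, two-sided) gives no p below 0.333, so that no probe can pass on its own. In whole-culture RNA, fewer cells of a kind and less RNA per cell cannot be told apart. Of 8 monoblast markers with a probe, 7 (SPI1, CEBPA, CSF1R, CD33, PTPRC, MPO and HOXA9) were well above background on all 4 arrays. Among 10 markers of other lineages, MS4A1, EPCAM, KRT19, COL1A1 and COL1A2 were so on 0 arrays, while 4, with CD3D and HBB among them, had a probe that was so on all 4.

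The array of miR-511 mimic in experiment 1 stood apart from the other 3. On it, 478 of 21608 probes (2.21%) lay more than 0.5 below all 3 other arrays, against 0.435% to 0.754% on each of the others. Among 93 member probes there were 4 of this kind, measuring DNAJA1, DNAJC2, HSPA6 and HSP90AA1. One further member probe, that of HSPB6, was alone in this way on the control array of experiment 1. The differences of these 5 probes are therefore given below with and without the array in question.

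**Figure D1:**
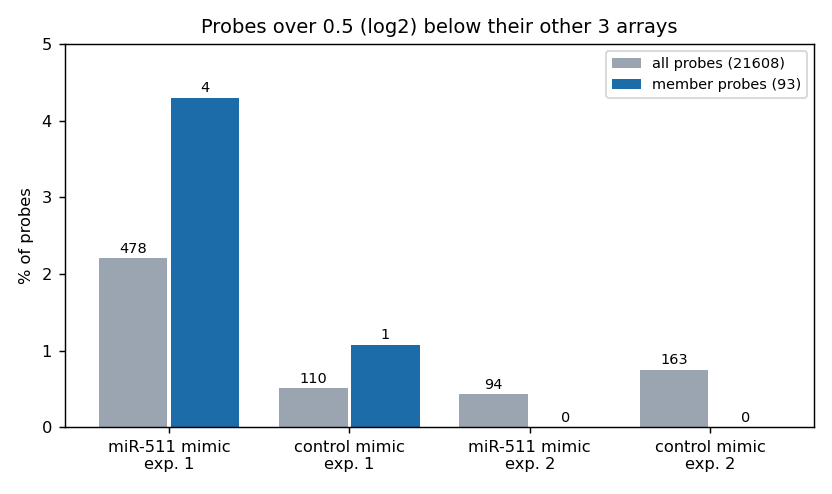
Percentage of probes whose normalized log2 intensity on 1 array lay more than 0.5 below their other 3 arrays, for all probes well above background on all 4 arrays (grey) and for member probes (blue), with the number of probes above each bar. The miR-511 mimic array of experiment 1 holds 478 of all probes and 4 member probes, and the other arrays hold 94 to 163 and 0 to 1.

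Most chaperone genes were expressed. Of the 107 member probes, 93 (86.9%) were well above background on all 4 arrays, against 63.4% of all probes, and 10 were so on no array, against 28.8% of all probes. By gene, 68 of the 81 had at least 1 probe above background throughout, and 9 had none above it on any array. The 9 were the small HSP genes HSPB2, HSPB3, HSPB7 and HSPB8, the DNAJ genes DNAJB3, DNAJB7 and DNAJB8, the atypical HSP70 gene HSPA12A and the pseudogene HSP90AB6P. HSPB2 and HSPB3 belong to skeletal and heart muscle, HSPB7 to heart, and DNAJB3, DNAJB7 and DNAJB8 are known from testis. The tenth such probe was 1 of 3 for HSPA6, whose other probes were above background. In between stood HSP90AB4P with 1 array, HSPA12B with 2, and DNAJC6 and DNAJC12 with 3. DNAJC6, the neuronal auxilin that uncoats clathrin vesicles, and DNAJC12, a co-chaperone of aromatic amino acid hydroxylases, missed it on the miR-511 mimic array of experiment 1 only. Every gene of the cytosolic, ER and mitochondrial lists was tested. These held 12 cytosolic genes of the heat shock response, 8 genes of the ER and 8 of mitochondria. They are chosen lists and need not hold every member of a compartment.

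Transfection with miR-511 mimic was accompanied by small differences of chaperone transcripts, and few stood out of the spread. Only 2 of 95 member probes (2.11%) passed the unadjusted threshold, against 2.2% of all tested probes. Both were lower with miR-511 mimic, where the background was 0.932% for lower and 1.27% for higher probes. No member passed Benjamini-Hochberg adjustment (smallest adjusted p = 1.00, limma). The median log2FC was 0.011 over the member probes and 0.010 over all tested probes, and 64 of the 95 member probes had a log2FC smaller than 0.1 in size, where the median SE was 0.11. The treatments did not overlap for 18 member probes (12 higher, 6 lower with miR-511 mimic), which is 18.9% against 25.7% of all tested probes. The sign was the same in both experiments for 52 of the 95 (54.7%), against 51.0% of all tested probes.

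The larger of the 2 differences was seen at 1 of the 2 probes of DNAJB2, an HSP70 co-chaperone known from neurons that carries ubiquitin-interacting motifs. This probe lies on chromosome 2 of hg19 from 220148183 to 220149384. Its log2 intensity was 5.03 and 5.80 with miR-511 and control mimic in experiment 1, and 5.14 and 5.98 in experiment 2. Both miR-511 arrays were thus below both control arrays by a similar step. The log2FC was -0.81 (SE 0.11, adjusted p = 1.00, limma). It passed the threshold in all 13 alternative settings, but its size fell to -0.24 after normexp background correction. The second DNAJB2 probe, from 220151526 to 220151585, read 10.98 and 11.08 in experiment 1 and 10.69 and 10.87 in experiment 2. Its log2FC of -0.14 (SE 0.15) had the same sign and did not pass, so that the probes of this gene differed in size.

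HSPB9, a small heat shock protein gene known from testis, was the other call, at its only probe on chromosome 17 from 40275148 to 40275207. It read 4.43 with miR-511 mimic against 5.04 with control mimic in experiment 1, and 4.62 and 4.88 in experiment 2. The treatments did not overlap, and the step in experiment 1 was the larger one. The log2FC was -0.43 (SE 0.12, adjusted p = 1.00, limma). The call was lost in 5 of 13 alternatives. The log2FC was -0.078 after normexp background correction, -0.34 without the miR-511 array of experiment 1 and -0.35 without the control array of experiment 1. Other small HSPs gave no call. HSPB1, the abundant HSP27, had a log2FC of -0.10 (SE 0.12) at its brighter probe and 0.10 (SE 0.10) at the other. HSPB6 read 4.72 and 4.00 in experiment 1 and 4.73 and 4.75 in experiment 2 with miR-511 and control mimic, so only the control array of experiment 1 was low. Its log2FC of 0.35 (SE 0.27) became -0.026 without that array.

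**Figure D2:**
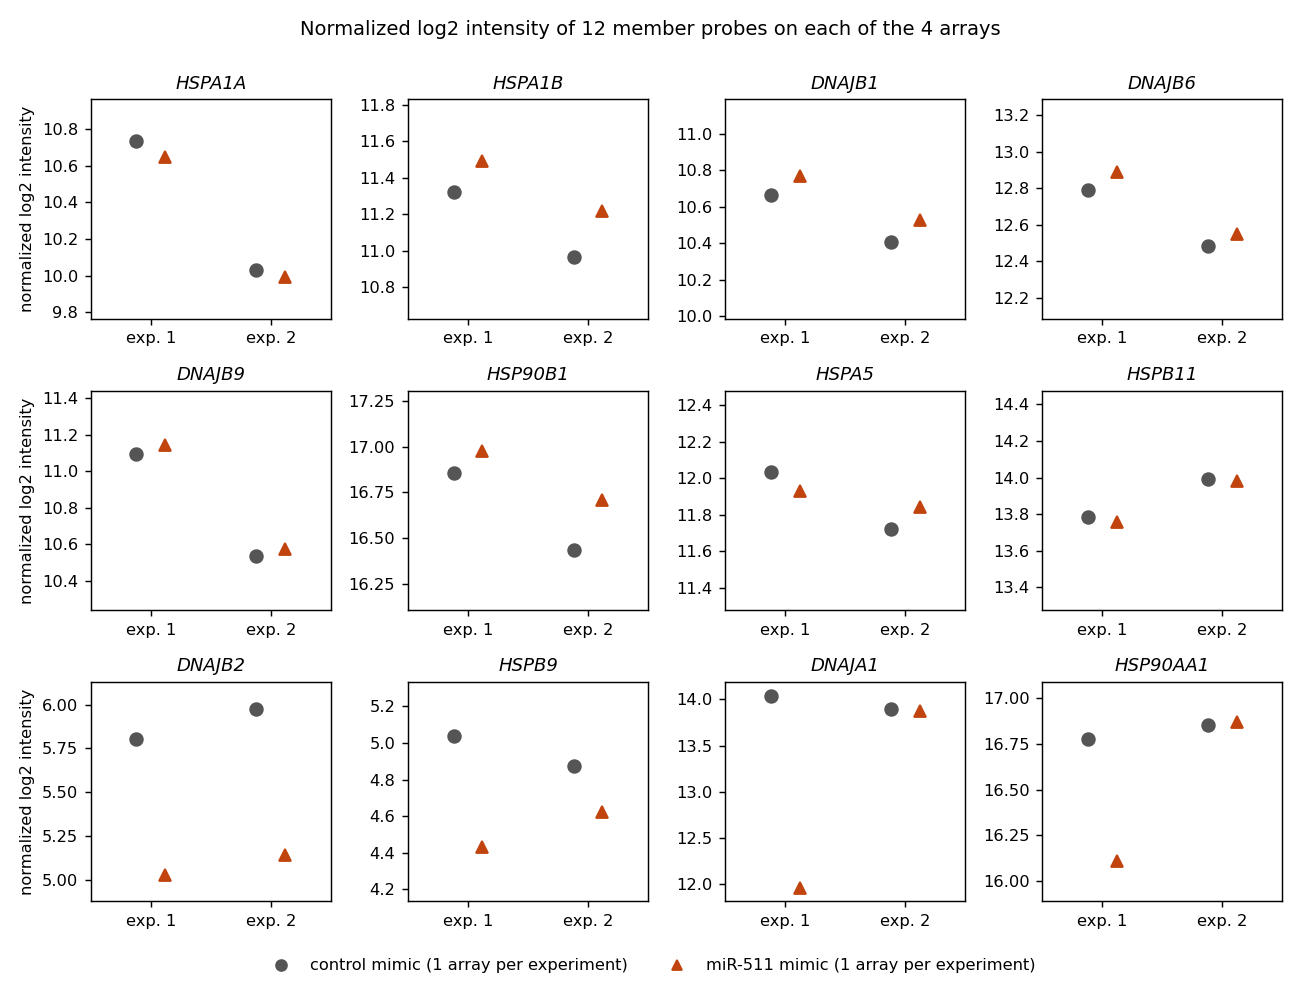
Normalized log2 intensity of 12 member probes on each array, with control mimic as grey circles and miR-511 mimic as orange triangles, by experiment; each panel has its own axis, of at least 1.2 log2 units. HSPA1A, HSPA1B, DNAJB1, DNAJB6, DNAJB9, HSP90B1 and HSPA5 are lower in experiment 2 with both mimics. DNAJB2 and HSPB9 are lower with miR-511 mimic in both experiments, and DNAJA1 and HSP90AA1 are low on the miR-511 mimic array of experiment 1 alone.

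Larger in size, yet without a call, was DNAJA1, a farnesylated cytosolic partner of HSP70 that passes clients on to HSP90. Its probe, on chromosome 9 from 33036682 to 33037066, read 11.97 with miR-511 mimic but 14.04 with control mimic in experiment 1, but 13.87 and 13.90 in experiment 2. A single array was low, by 1.91 below the next. The log2FC was -1.05 (SE 0.67) over all 4 arrays and -0.095 without that array. DNAJC2, the ribosome-associated co-chaperone of nascent chains, behaved alike, with 12.29 and 13.31 in experiment 1 and 13.32 and 13.29 in experiment 2. Its log2FC of -0.49 (SE 0.37) became 0.027 without the miR-511 array of experiment 1. DNAJC2 is outside the rule for named genes and was picked after its values were seen, as was DNAJC6. Other members given below with the ER and mitochondrial lists are outside that rule as well and were not fixed in advance. These are HSPA13, DNAJB11, DNAJB12, DNAJB14, DNAJC10, DNAJC14, DNAJC16, DNAJC18 and DNAJC30. DNAJC6 had the largest log2FC in size, -1.18 (SE 0.85), from 2.75 and 4.58 in experiment 1 and 4.99 and 5.51 in experiment 2, with the first of these not well above background.

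HSP90 genes showed what a single probe can hide. HSP90AA1, the inducible cytosolic HSP90, has 3 probes on chromosome 14. The brightest, from 102547395 to 102547454, read 16.11 and 16.78 with miR-511 and control mimic in experiment 1 and 16.87 and 16.85 in experiment 2. Again the miR-511 array of experiment 1 alone was low, and the log2FC of -0.33 (SE 0.28) became 0.052 without it. The other probes of this gene gave 0.075 (SE 0.10) and 0.060 (SE 0.11) and did not show that dip. HSP90AB1, the constitutive cytosolic form, had a log2FC of 0.077 (SE 0.097) at its brighter probe and -0.044 (SE 0.097) at the other. HSP90B1, the ER form GRP94, had 0.20 (SE 0.19) at its brighter probe and -0.060 (SE 0.11) at the other. None of the 7 HSP90 probes passed the threshold, against 2.2% of all tested probes.

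Among the HSP70 genes, 0 of 10 tested genes passed the threshold by their brightest probe, against 2.12% of all tested genes. The log2FC was 0.21 (SE 0.18) for HSPA1B, -0.063 (SE 0.35) for HSPA1A, 0.010 (SE 0.091) for the constitutive HSPA8, 0.053 (SE 0.11) for the mitochondrial HSPA9 and 0.0079 (SE 0.14) for the ER chaperone HSPA5, also known as BiP. HSPA6, which is barely transcribed without stress in most cells, had log2FC values of -0.17 (SE 0.20) and -0.51 (SE 0.29) at its tested probes. The first became 0.081 without the miR-511 array of experiment 1. At the second of these it read 3.95 and 4.72 in experiment 1 and 4.70 and 4.96 in experiment 2, and without the same array the log2FC was -0.14. The HSP110 genes lay at 0.064 (SE 0.10) for HSPH1 and 0.071 (SE 0.099) for HSPA4, with a second HSPH1 probe at 0.22 (SE 0.105). The chaperonin genes HSPD1 and HSPE1 differed by 0.043 (SE 0.10) and 0.027 (SE 0.10).

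HSF1 itself, which controls the inducible members, had a log2FC of -0.068 (SE 0.090) at the brightest of its 3 probes, and HSF2, a related factor active in development, one of -0.040 (SE 0.10). Of the DNAJ genes, DNAJB1, the main partner of HSP70 in the heat shock response, had a log2FC of 0.11 (SE 0.15). DNAJB9 had 0.044 (SE 0.29), DNAJC3 0.068 (SE 0.12) and DNAJC5, the cysteine string protein, -0.044 (SE 0.13). DNAJB5 had the highest log2FC among members above background throughout whose sign was the same in both experiments, 0.29 (SE 0.14) at its dimmer probe, and -0.038 (SE 0.12) at the brighter. That dimmer probe passed the threshold when the experiment was a block in the fit. Of the 22 genes with more than 1 tested probe, the probes agreed on the sign of the log2FC in 5.

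By compartment list, the log2FC had a median of 0.037 over 12 cytosolic genes of the heat shock response. It was 0.026 over the 8 listed ER genes and 0.035 over the 8 listed mitochondrial genes, beside 0.010 over all 18001 tested genes. Each list had 0 calls, against 2.12% of all tested genes. By family the median was 0.086 over 10 DNAJB genes, -0.013 over 26 DNAJC genes and 0.0091 over 10 HSP70 genes.

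**Figure D3:**
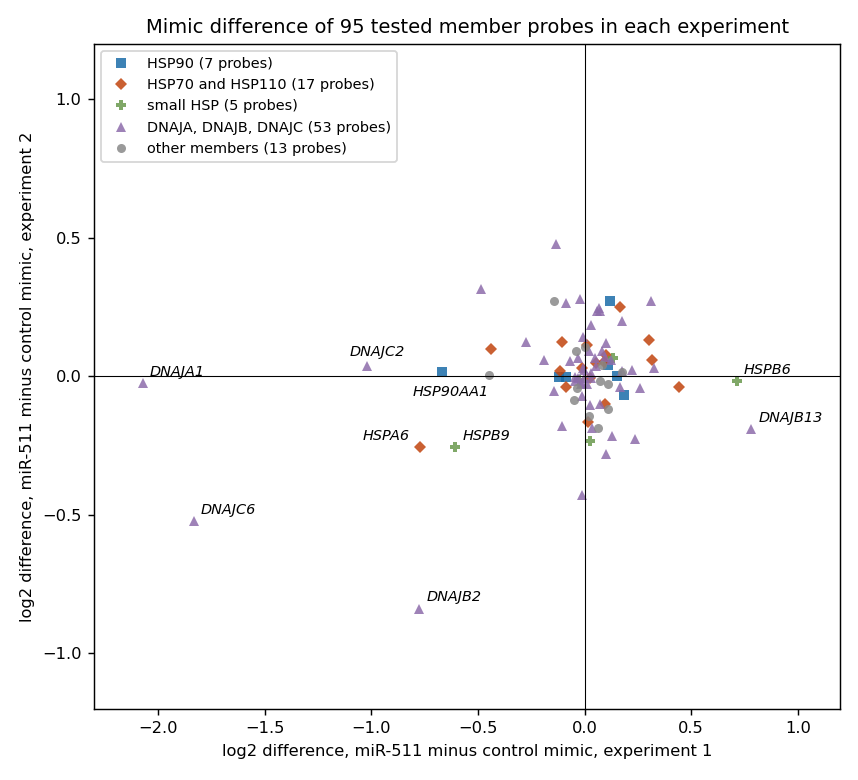
Log2FC of miR-511 mimic against control mimic for each of 95 tested member probes, in experiment 1 (horizontal axis) and experiment 2 (vertical axis), coloured by family; each value is 1 array minus 1 array. DNAJB2 and HSPB9 are negative on both axes, while DNAJA1, DNAJC2 and HSP90AA1 lie far left at a height near 0, and HSPB6 lies right at a height near 0.

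The median size of the log2 difference was 0.108 between the experiments and 0.071 between the mimics over the member probes, beside 0.121 and 0.079 over all tested probes. In experiment 2, the inducible HSP70 gene HSPA1A, its partner DNAJB1 and the ER co-chaperone DNAJB9 were lower with both mimics. In all, 7 of 95 member probes (7.37%) passed the unadjusted threshold, against 13.6% of all tested probes. Of the 7, 6 were lower in experiment 2, against 8.15% of all probes, and 1 was higher, against 5.42%. None passed Benjamini-Hochberg adjustment (smallest adjusted p = 0.215, limma), which also holds for all 22638 tested probes. The median log2 difference was 0.0034 over the member probes and -0.0093 over all. The experiments did not overlap for 56 of 95 member probes (32 lower, 24 higher in experiment 2), or 58.9% against 48.9% of all tested probes. The difference had the same sign with both mimics for 64 of the 95 (67.4%), against 62.6% of all tested probes. The number of calls rested on the settings, with 19 after normexp background correction and 16 with an intensity trend in the fit. There 3174 and 3312 of all tested probes passed. The shares were 20% of member probes against 14.02% of all after normexp, and 16.8% against 14.6% with the trend. A test of each probe without limma's moderation gave 14.7% against 11.3%. In the other alternatives that kept all 4 arrays, the share was lower among members, as in the reported fit. Whether members passed less or more often than all tested probes thus depended on the setting.

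HSPA1A codes for the stress-inducible HSP70. Its probe lies on chromosome 6 from 31785491 to 31785550 and is printed 10 times on each array. It read 10.65 with miR-511 mimic against 10.74 with control mimic in experiment 1, and 9.99 and 10.03 in experiment 2. Both arrays of experiment 2 were thus below both of experiment 1, while the mimics differed little within each. The mean was 10.69 ± 0.061 (SD, n = 2) in experiment 1 and 10.01 ± 0.027 (SD, n = 2) in experiment 2. The log2 difference was -0.68 (SE 0.074, adjusted p = 0.215, limma). The SD over the spots of 1 array lay between 0.046 and 0.125, which measures printing and reading alone. HSPA1B, the neighbouring gene for the same protein, read 11.49 and 11.32 in experiment 1 and 11.22 and 10.97 in experiment 2. Its log2 difference was -0.31 (SE 0.13) and did not pass, although it did with the mimic as a block in the fit.

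DNAJB9, also called ERdj4, is an ER co-chaperone of HSPA5 that is raised by the unfolded protein response. At chromosome 7 from 108214515 to 108214574 it read 11.14 and 11.09 in experiment 1 and 10.57 and 10.53 in experiment 2 with miR-511 and control mimic. Its log2 difference was -0.57 (SE 0.069, adjusted p = 0.218, limma). HSPA1A and DNAJB9 passed in all 13 alternative settings, with ranges of -0.73 to -0.64 and of -0.59 to -0.54.

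The remaining calls were smaller. DNAJB1 read 10.77 and 10.67 in experiment 1 and 10.53 and 10.41 in experiment 2, with a log2 difference of -0.25 (SE 0.086). DNAJB6, which keeps polyglutamine proteins from aggregating, passed at 2 of its 3 probes, with -0.32 (SE 0.078) and -0.23 (SE 0.082), and had -0.091 (SE 0.066) at the third. The brightest of these read 12.89 and 12.79 in experiment 1 and 12.55 and 12.48 in experiment 2. HSPA8, the constitutive HSP70 of the cytosol, passed at its dimmer probe with -0.25 (SE 0.077), but its brighter probe read 15.54 and 15.51 in experiment 1 and 15.48 and 15.49 in experiment 2, a log2 difference of -0.043 (SE 0.066). HSPB11, or IFT25, was higher in experiment 2, with 13.76 and 13.78 against 13.98 and 13.99 and a log2 difference of 0.22 (SE 0.066). DNAJB1 lost its call in 7 of 13 alternatives, the smaller DNAJB6 difference in 8, HSPA8 in 5 and HSPB11 in 5. Leaving out any single array ended the calls of DNAJB1 (-0.31 to -0.19), HSPB11 (0.20 to 0.23) and the smaller DNAJB6 difference (-0.29 to -0.17). The larger DNAJB6 difference lost its call without the miR-511 array of experiment 1 (-0.27) or the control array of experiment 2 (-0.29), and HSPA8 lost it without any array (-0.26 to -0.19) but the miR-511 array of experiment 1. With the mimic as a block in the fit, the smaller DNAJB6 difference, HSPA8 and HSPB11 did not pass.

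Of the ER chaperones on the list, 8 of 8 genes had a negative log2 difference by their brightest probe, with a median of -0.17. Only 1 of them, DNAJB9, passed. The list was chosen and need not hold every ER member. Members left out that are also placed in the ER went both ways. DNAJB12 had 0.012 (SE 0.12), DNAJC14 0.12 (SE 0.13) at its brighter probe and DNAJC16 0.0088 (SE 0.13). DNAJB14 had -0.20 (SE 0.11) and DNAJC18 -0.072 (SE 0.12). With control mimic alone, HSPA13 and DNAJB11 had positive differences of 0.014 and 0.025. The dimmer DNAJC10 probe had 0.072 (SE 0.091). HSP90B1 read 16.98 and 16.86 in experiment 1 and 16.71 and 16.44 in experiment 2, a log2 difference of -0.34 (SE 0.13) at its brighter probe and -0.10 (SE 0.078) at the other. HSPA5 read 11.93 and 12.04, then 11.85 and 11.72, with -0.20 (SE 0.088). DNAJC3, an ER co-chaperone that holds misfolded proteins, had -0.15 (SE 0.083). For 6 of the 8 genes the experiments did not overlap, all lower in experiment 2, where 49.5% of all tested genes did not overlap and 27.2% were lower in this way. A negative difference was seen in 53.1% of all tested genes, and 8.43% passed as lower. HSP90B1 passed with the mimic as a block in the fit, and HSPA5 did with an intensity trend.

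None of the 8 listed mitochondrial chaperones passed, against 13.8% of all tested genes. The log2 difference by the brightest probe was positive for 7 of the 8, against 46.9% of all tested genes, with a median of 0.090. DNAJC30 counts as positive by its brighter probe, with 0.083 (SE 0.17), while its dimmer probe had -0.32 (SE 0.13). HSPA9, which draws proteins into mitochondria, read 12.49 and 12.44 in experiment 1 and 12.63 and 12.58 in experiment 2, a log2 difference of 0.14 (SE 0.071). HSPE1 had 0.098 (SE 0.071) and HSPD1 0.073 (SE 0.077). The cytosolic, ER and mitochondrial lists had medians of -0.075, -0.17 and 0.090, beside -0.012 over all tested genes. The difference between the compartments was not tested. The list of 12 cytosolic genes of the heat shock response also holds the constitutive HSPA8 and HSP90AB1. Of the 12, 2 were lower by a call (HSPA1A and DNAJB1), against 8.43% of all tested genes. A positive difference was seen in 5 of the 12. The largest were those of DNAJA1 and HSP90AA1, which rest on 1 array as given below, and HSP90AB1 had 0.032 (SE 0.085).

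By family, DNAJB genes had a median log2 difference of -0.18, with 8 of 10 genes negative and 3 passing as lower (DNAJB1, DNAJB6 and DNAJB9), beside 53.1% negative and 8.43% passing as lower among all tested genes. The 10 HSP70 genes had a median of -0.12, with 7 negative and 1 passing, and the 26 DNAJC genes had 0.030, with 10 negative and 0 passing. DNAJC6 had the largest log2 difference in size, 1.59 (SE 0.68), and 0.93 with control mimic alone, where both of its arrays were above background. Some values at the upper end again turned on the miR-511 array of experiment 1. DNAJA1 had a log2 difference of 0.88 (SE 0.74) with that array and -0.15 without it, DNAJC2 one of 0.51 (SE 0.37) and -0.00050, and the brightest HSP90AA1 probe one of 0.42 (SE 0.25) and 0.082. HSPA6 at its dimmer tested probe had 0.50 (SE 0.30) and 0.11 without it, and HSPB6 had 0.38 (SE 0.26) and 0.024 without the control array of experiment 1. HSPH1 at -0.11 (SE 0.077), HSPA4 at 0.088 (SE 0.075), HSF1 at -0.036 (SE 0.074), HSF2 at 0.11 (SE 0.069), HSPB1 at -0.12 (SE 0.11) and DNAJC5 at -0.061 (SE 0.11) stayed below the threshold. The dimmer DNAJC5 probe had -0.52 (SE 0.19) and did not pass either. Of the 22 genes with more than 1 tested probe, the sign was shared by all probes in 16.

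**Figure D4:**
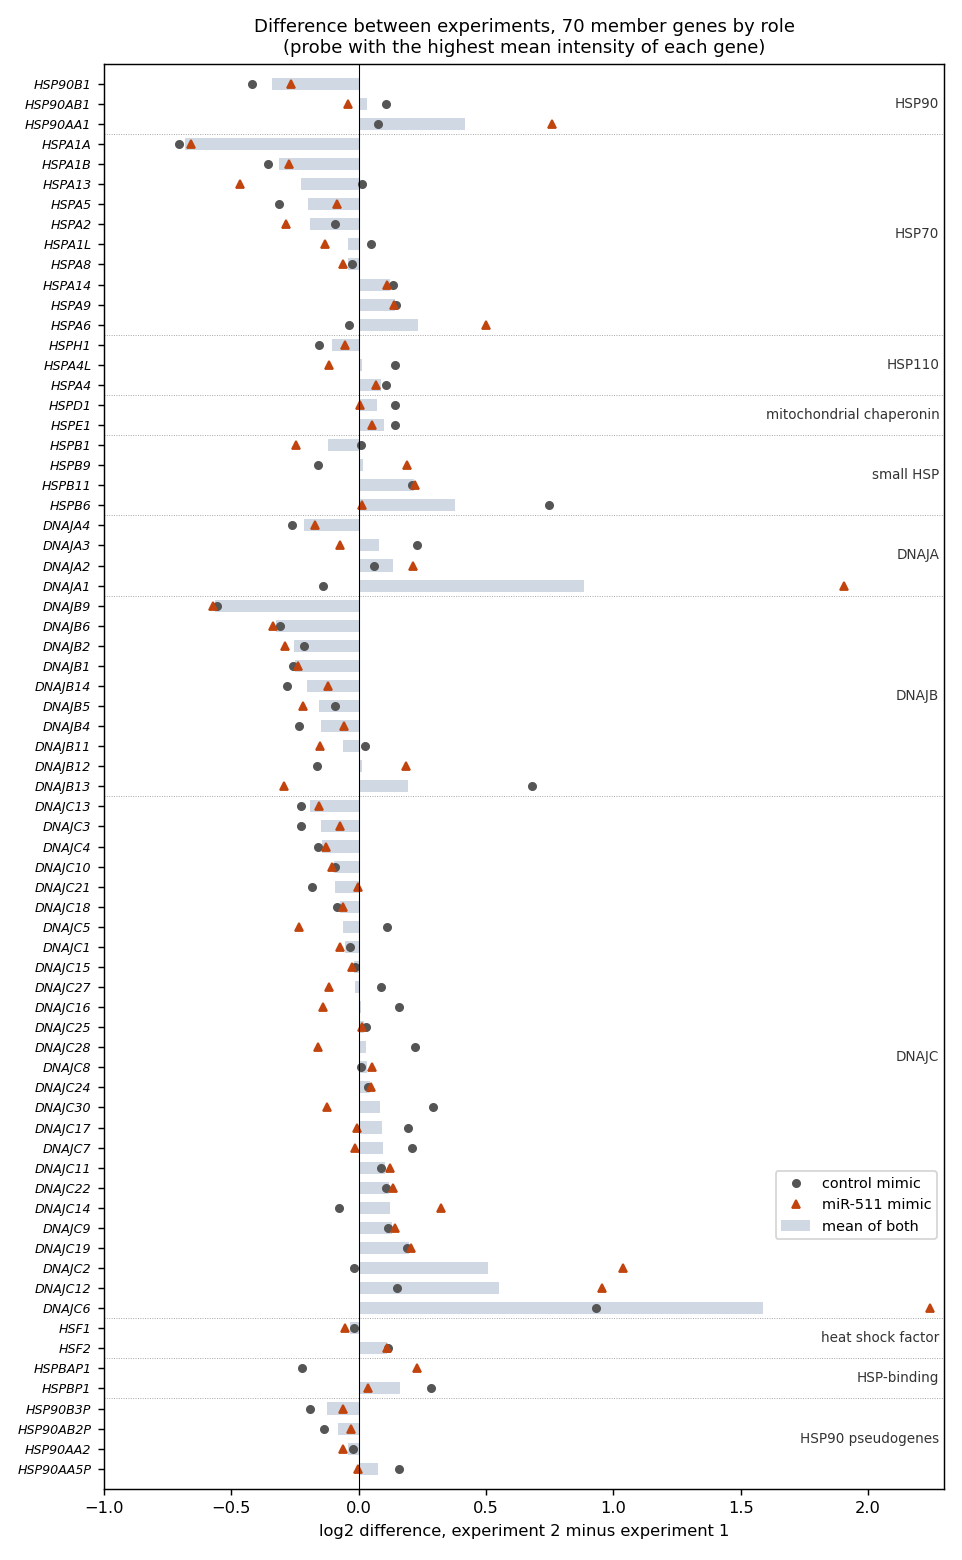
Log2 difference of experiment 2 minus experiment 1 for 70 member genes, each by its probe with the highest mean intensity, ordered by family; grey circles are control mimic, orange triangles miR-511 mimic (1 array minus 1 array each) and bars their mean. HSPA1A, DNAJB9, DNAJB6 and DNAJB1 are among the genes with both points left of 0 close together, and HSPB11 is among those with both right of 0. For DNAJA1, DNAJC2 and HSP90AA1 the miR-511 point lies far from the control point.

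Other measured features moved with the experiment as well. Of 7 monoblast markers tested, 6 had a negative log2 difference, with a median of -0.10, and 2 passed: CSF1R, the receptor of the monocyte growth factor, with -0.25 (SE 0.076), and PTPRC, the leukocyte antigen CD45, with -0.30 (SE 0.11). Of 5 tested markers of other lineages, 4 had a positive difference, and 1 passed. This was CD3D of the T cell receptor complex with 0.21 (SE 0.071), at a low mean log2 intensity of 4.87. Among all tested genes, 53.1% had a negative and 46.9% a positive difference, and 13.8% passed. The part of cell state in the chaperone values was not tested. All 4 arrays were on 1 slide and in 1 scan.

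Promoters of the members, as RefSeq annotates them on GRCh38.p14 from 250 bases before to 50 bases after the start of the gene, were searched for the elements that the 2 stress responses use. The table held 67 of the 81 members, 17 of them with more than 1 promoter, and counts here take the first promoter listed of each gene unless said otherwise. A full heat shock element was taken as GAANNTTCNNGAA or TTCNNGAANNTTC, which is 3 alternating units with 2 free bases between neighbours. The second is the reverse complement of the first, so that both strands were searched, and each contains the shorter GAANNTTC and TTCNNGAA. It was present in 4 of 67 members (5.97%), against 0.487% of all 27305 genes in the table, and these were DNAJA1, DNAJB6, HSPA6 and HSPA8. Over any promoter listed it was present in 7 members (10.4%), against 0.608% of all genes, with HSP90AA1, HSP90AB1 and HSPD1 added. Over single promoters the share was 0.490% of 35116. The shorter GAANNTTC, which is its own reverse complement, was in 11 of 67 (16.4%), against 6.87% of all genes, and TTCNNGAA was in 8 (11.9%), against 7.84%. An ER stress element, CCAAT and CCACG with 9 bases between them on either strand, was in 2 of 67 (2.99%), HSP90B1 and HSPA5, against 0.0806% of all genes. Every such match also counts as a CCAAT box, which 27 of 67 members held (40.3%), against 35.7% of all genes.

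Matches of the full heat shock and ER stress elements upstream of the start are shown, since they tell which members hold which element. That of DNAJA1 lies downstream of it and is left out. Capitals mark the units of each element. DNAJB6 is at chr7:157336859-157336899 on the plus strand, and HSPA6 is at chr1:161524452-161524492 on the plus strand. HSPA8 has a distal one at chr11:123062340-123062380 and a proximal one at chr11:123062165-123062205, both on the minus strand. HSP90B1 has ER stress elements at chr12:103930202-103930248 and chr12:103930307-103930353 on the plus strand, the second in reverse orientation, and HSPA5 has one at chr9:125241377-125241423 on the minus strand. The shorter GAANNTTC alone is shown for HSPA1A and HSPA1B only, at chr6:31815421-31815461 and chr6:31827617-31827657 on the plus strand. DNAJB7, HSPA1L, HSPB1, HSPB6 and HSPB8 also held it upstream of the start and are not shown.

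DNAJB6: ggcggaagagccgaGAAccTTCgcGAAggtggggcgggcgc
HSPA6: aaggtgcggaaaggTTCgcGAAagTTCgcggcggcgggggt
HSPA8 distal: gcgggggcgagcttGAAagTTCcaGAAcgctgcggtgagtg
HSPA8 proximal: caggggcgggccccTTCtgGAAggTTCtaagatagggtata
HSPA1A: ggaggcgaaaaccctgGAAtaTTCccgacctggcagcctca
HSPA1B: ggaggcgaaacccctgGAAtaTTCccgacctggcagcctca
HSP90B1 distal: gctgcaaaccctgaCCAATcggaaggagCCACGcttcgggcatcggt
HSP90B1 proximal: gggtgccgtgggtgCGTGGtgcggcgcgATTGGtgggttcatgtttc
HSPA5: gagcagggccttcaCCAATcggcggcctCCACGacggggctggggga

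The windows of HSPA1A and HSPA1B are nearly the same, while their probes gave log2 differences between the experiments of -0.68 and -0.31. Of the 4 genes with a full heat shock element in that promoter, DNAJB6 passed with a log2 difference between the experiments of -0.32, and HSPA8 had -0.043 at its brighter probe. HSPA6 had 0.23 and DNAJA1 0.88, which became 0.012 and -0.15 without the miR-511 array of experiment 1. Both genes with an ER stress element were lower in value in experiment 2, HSP90B1 by a log2 difference of -0.34 and HSPA5 by one of -0.20, and neither passed the threshold. Of 57 tested members without the full heat shock element, 26 had a negative difference and 3 passed as lower. Without the ER stress element these were 26 and 4 of 59. Over all tested genes, 53.1% were negative and 8.43% passed as lower. A link between element and difference was not tested. DNAJB9, which passed, held a CCAAT box and no ER stress element in this window. A match is a description of the sequence, and no match says only that these letters are not in this window.

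The wider chaperone machinery was followed with a list of 37 genes outside the naming rule, each by its brightest probe: BAG proteins, HSP90 co-chaperones, the cytosolic chaperonin, nucleotide exchange factors and others. All 37 were tested. With miR-511 mimic, 0 passed, 24 log2FC values were positive and 13 negative, and the median was 0.028. The background was 2.12% of all tested genes. A test of each probe without limma's moderation gave 2 in place of 0 at the unadjusted threshold. CDC37, which brings kinases to HSP90, had the largest log2FC in size, -0.35 (SE 0.24), from 12.29 and 12.88 in experiment 1 and 12.92 and 13.03 in experiment 2. The low value again was that of the miR-511 array of experiment 1. Between the experiments, 2 of the 37 passed, both higher in experiment 2, where 13.8% of all tested genes passed and 5.38% did so as higher. These were CRYAB, a small HSP also called HSPB5, with 0.46 (SE 0.14), and FKBP5, a co-chaperone of HSP90 and the glucocorticoid receptor, with 0.21 (SE 0.072). CRYAB had a low mean log2 intensity of 4.11, and its difference was 0.64 with control mimic and 0.27 with miR-511 mimic. The median was 0.054, and 25 of 37 differences were positive.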

How the data were processed

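RNA of 4 THP1 cultures was hybridised to 1-colour Agilent arrays. The authors deposited the scanner's background-corrected spot intensity per array, together with a table of log2 values in which all arrays share 1 set of values, that is, quantile normalized. The submitters' processing notes name Agilent Feature Extraction 10.5.1.1, the file headers give 10.7.3.1, and probe positions are on hg19. Here, marked outlier spots were left out, log2 intensity was quantile normalized between arrays, spots of a probe were averaged, and limma 3.58.1 in R 4.3.3 was fitted to all tested probes, with no term for the experiment. The study's methods name quantile normalization, limma and a threshold on the unadjusted p but state no design, and their second criterion, a test over identical replicate probes, was not used here. A probe printed 10 times counted as above background on an array where more than 50% of its spots did. The labels number arrays by experiment, and same-numbered arrays deviated together (r = 0.271 across probes). All arrays were of 1 slide and 1 scan, so that no slide block was fitted.

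Named were fixed reference members, every member with a probe past the unadjusted threshold, and the 3 largest rises and 3 largest falls per comparison among probes above background on all 4 arrays with the same sign in both pairs, each by its probe of highest mean plus others that differed. Members and lists were chosen with earlier results of these data known. Alternatives were scaling to the 75th percentile, normexp background correction with an offset of 50, filters, marked spots kept, the deposited log2 table, a replicate block, an intensity trend, a test of each probe without moderation and leaving out each array. Of the 107 probes, 97 matched a RefSeq accession. Promoters and the miRNA came from RefSeq on GRCh38.p14, and the position of probes in transcripts was not analysed here. The number of arrays limits the precision. Some marker genes are not reported here by name.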

Additional observations from a re-analysis of the deposited data

Results flagged for a closer look

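Among the 34 named probes, those of 5 genes had an effect of opposite signs in the 2 arms in which it could be measured, by more than 0.1 each. Over all 95 tested member probes, 11 did so for the mimics and 11 between the experiments. Each arm is 1 array minus 1 array, and the difference between the arms was not tested. DNAJA1 in experiment 2 minus experiment 1 gave -0.14 with the control mimic and 1.91 with miR-511 mimic, where the miR-511 array of experiment 1 was low. The brighter DNAJC5 probe gave 0.13 for miR-511 minus control mimic in experiment 1 and -0.22 in experiment 2, hence 0.11 and -0.23 between experiments with control and miR-511 mimic, whereas its dimmer probe gave -0.14 and 0.48 for the mimics in experiments 1 and 2. HSPA5 gave -0.11 and 0.12 for the mimics in experiments 1 and 2, and the brightest HSPA6 probe -0.44 and 0.10. HSPB9 gave -0.16 with control mimic and 0.19 with miR-511 mimic between the experiments.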

How the results depend on the processing

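No member passed adjustment in any setting. The count of member probes lower or higher with miR-511 mimic was 2 in the reported fit. It was 1 after normexp background correction (1.05%, against 1.17% of all tested probes) and 4 with no filter on dim probes (3.74%, against 3.02%). It was 1 with an intensity trend (1.05%, against 1.26%) and 1 without moderation (1.05%, against 3.13%). The 10 arose without the miR-511 array of experiment 2, which leaves the low array of experiment 1 as the lone miR-511 array, and the lone array of an arm is assumed to vary like the others. The median log2FC was 0.020 after normexp and -0.00035 to 0.035 with 1 array left out. The count between experiments, 7 as reported, was 19 after normexp, 16 with an intensity trend, 14 without moderation, and 3 (without the control array of experiment 2) to 11 (without that of experiment 1), and its median -0.050 to -0.0031. Of the other chaperones, 2 passed between experiments, 3 after normexp, 3 with an intensity trend and 4 without moderation. With scaling to the 75th percentile, with no filter and with the replicate block it was 1 each. With miR-511 mimic 0 became 2 without moderation. The replicate block gave 3 calls for the mimics (3.16%, against 3.95% of all tested probes) and 7 between experiments (7.37%, against 11.6%). Of the latter, 4 were shared with the reported 7, and DNAJC6 was added beside those named above. Of 442 values of named probes under alternatives, 41 changed sign for the mimics and 14 between experiments. Except where arrays were left out, the cause was not tested. Signal near background limits DNAJB2 (dimmer probe), HSPB6, HSPB9 and HSPA6, and CRYAB among the other chaperones.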
